A study of Mus musculus with 16 samples.

Results

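The genes of 6 growth factors and 2 co-receptor genes that act on vessels and stroma were followed in tumour myeloid cells: Pdgfa, Pdgfb, Pdgfc, Vegfb, Igf1, Hbegf, Nrp1 and Nrp2. They were taken by gene symbol, and all 8 were found among the 24421 genes of the count tables. The 16 bulk RNA-seq libraries came from CD11b+ cells, a gate that takes in macrophages, monocytes and other myeloid cells, sorted as live CD45+ Kaede+ cells that lacked TER119 and NK1.1. The tumours were MC38-Ova, a mouse colon adenocarcinoma line that expresses ovalbumin, grown under the skin of female Kaede transgenic C57BL/6 mice, whose age is not in the labels and which carry the label Control in place of a treatment. Kaede is a fluorescent protein that turns from green to red under violet light, so that after a tumour is illuminated Kaede-red cells are those that were in it at that time and Kaede-green cells are those that came in later. The 4 groups of 4 libraries crossed colour (Kaede-green or Kaede-red) with the time since photoconversion (24h or 72h). Colour is thus a limit on time spent in the tumour and not a cell type, since Kaede-green cells at 72h could have entered at any time in those 72h. The study's supplement describes the samples as tumours of independent mice, but the labels do not, and p-values measure the spread between these libraries. Both colours were sorted from harvested tumours, and which Kaede-green and Kaede-red libraries share a tumour is not stated. The main tests treated the libraries as unpaired.

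Platelet-derived growth factors are secreted dimers that drive the growth and migration of fibroblasts, pericytes and smooth muscle cells through the receptors PDGFRA and PDGFRB. The PDGF-B chain is best known for drawing pericytes to new vessels, and PDGF-C is released in a latent form that proteases such as the plasminogen activators cleave. VEGF-B binds VEGFR1 and neuropilin-1, IGF-1 is a survival and growth factor for which macrophages are a known source, and HB-EGF is shed from the cell surface and binds the EGF receptor and ERBB4. Neuropilin-1 and neuropilin-2 are co-receptors for VEGF ligands and for class 3 semaphorins and have no kinase of their own. Tumour-associated macrophages are known as a source of several of these ligands, and the study asked how resident time in the tumour changes such cells and their exchange with fibroblasts.

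Of the 8 genes, 5 had enough counts to be tested, and Pdgfb and Nrp1 were higher in Kaede-red than in Kaede-green cells over both times. Pdgfb was 4.73-fold higher and Nrp1 1.58-fold higher (edgeR quasi-likelihood test, adjusted p = 0.00139 and 0.0278). Pdgfa, Pdgfc and Nrp2 did not pass that test, and Vegfb, Igf1 and Hbegf were too low to enter it. At 72h only Pdgfb passed among the 5, and at 24h none of the 5 did. Between 24h and 72h within a colour, and in how far the colours' difference itself changed from 24h to 72h, none of the 5 passed. The members' counts stood against a background in which 20.2% of the 9642 tested genes were called between the colours over both times, with 7.51% called at 24h and 16.8% at 72h. Between times, 0% were called in Kaede-green cells (0 of 9642 with edgeR, 835 at an unadjusted p under 0.05) and 8.67% in Kaede-red cells, and 0.767% were called for the change of the difference. A count of 2 of 5 against 20.2% and of 1 of 5 against 16.8% rests on too few genes to set the members apart from the rest. The filter on low counts asked for 1.66 CPM of unscaled library totals in at least 4 libraries. The 3 PDGF genes met it only through Kaede-red libraries (8 of them for Pdgfb, 5 for Pdgfc and 4 for Pdgfa), so that they entered the test through that colour alone, and both neuropilins met it in 7 Kaede-green and 8 Kaede-red libraries. Igf1 and Vegfb fell just short with 3 Kaede-red libraries each, and Hbegf reached it in none.

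Levels are given as CPM, counts relative to the library size after TMM scaling, which sets a factor so that most genes do not change. The ribosomal RNA gene Rn45s took 79.0 to 93.4% of the counts in Kaede-green and 55.8 to 84.9% in Kaede-red libraries, whose totals ran from 3216858 to 15423085. Counts outside Rn45s were 468092 to 912689 in Kaede-green and 758192 to 5472477 in Kaede-red libraries. After scaling, a single count was worth 0.243 to 0.557 CPM in Kaede-green against 0.0210 to 0.181 CPM in Kaede-red libraries, so that genes near 1 CPM rested on a handful of reads in Kaede-green cells. Depth and the Rn45s share moved with colour, and their part in the results was not tested beyond the fits given beside them. Markers of macrophages summed to 304 to 454 CPM in Kaede-green against 522 to 866 CPM in Kaede-red libraries, and markers of monocytes to 706 to 1598 and 485 to 742 CPM. As both cell types sit in the gate, fewer cells of a type and less RNA per cell cannot be told apart in these bulk samples.

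Promoter sequences are shown for the neuropilins, the most abundant members, since Nrp1 was called and Nrp2 was not. Both windows are upstream of RefSeq transcript starts in GRCm38.p6, on the plus strand, cut where an exon begins. The Nrp1 window is chr8:128358823-128359072 and lies within the longer GENCODE model of Nrp1, outside its exons. The Nrp2 window is chr1:62703067-62703284 and ends where the annotated gene starts. Capitals mark the SP1 box (GGGCGG, on either strand, CCGCCC when read on this one) and the core that PU.1 and other ETS factors bind (GAGGAA).
Nrp1: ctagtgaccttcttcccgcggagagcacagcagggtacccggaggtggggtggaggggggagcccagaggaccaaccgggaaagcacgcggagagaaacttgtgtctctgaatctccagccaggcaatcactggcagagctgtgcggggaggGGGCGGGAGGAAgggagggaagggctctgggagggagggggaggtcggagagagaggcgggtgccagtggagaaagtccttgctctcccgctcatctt
Nrp2: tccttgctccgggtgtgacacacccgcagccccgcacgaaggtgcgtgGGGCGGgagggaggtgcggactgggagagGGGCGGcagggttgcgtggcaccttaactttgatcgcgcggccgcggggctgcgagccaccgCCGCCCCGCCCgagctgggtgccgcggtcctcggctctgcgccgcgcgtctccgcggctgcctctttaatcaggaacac
The Nrp1 window held 1 SP1 box, 98 bases before the start, and 1 PU.1 core, 92 bases before it, directly next to each other. The Nrp2 window held 4 SP1 boxes, at 202, 173, 111 and 106 bases before the RefSeq start, the last pair overlapping by a base, and no PU.1 core. That start lies past the end of the printed window, so the boxes are nearer to the annotated gene start than these distances. Neither held an AP-1 site (TGANTCA) or a hypoxia-inducible factor core (ACGTG), searched on both strands. Among 32851 mouse promoters cut to the 250 bases before the start, 32.7% held the SP1 box, 23.3% the PU.1 core, 6.75% the AP-1 site and 16.6% the ACGTG core. In windows matched to that of Nrp2 (218 bases), the SP1 box was in 28.2% and the PU.1 core in 20.2%. These matches describe letters only.

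Pdgfb, the gene of the PDGF-B chain, showed the largest difference among the members tested. In the 4 Kaede-green libraries at 24h it had 1, 4, 0 and 0 counts (0.557, 1.63, 0 and 0 CPM). In the 4 Kaede-red libraries at 24h it had 21, 16, 12 and 24 counts (1.84, 1.94, 2.17 and 1.55 CPM). Of these, 3 lay above every Kaede-green library, while the lowest, at 1.55 CPM, lay under Kaede-green replicate 2 at 1.63 CPM. At 72h the Kaede-green libraries had 2, 1, 1 and 1 counts (0.729, 0.305, 0.243 and 0.259 CPM). The Kaede-red libraries at 72h had 66, 80, 13 and 107 counts (2.58, 2.01, 1.96 and 2.25 CPM), so that the colours did not overlap at that time. Of all tested genes, 22.5% had no overlap between the colours at 72h and 12.5% at 24h.

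**Figure D1:**
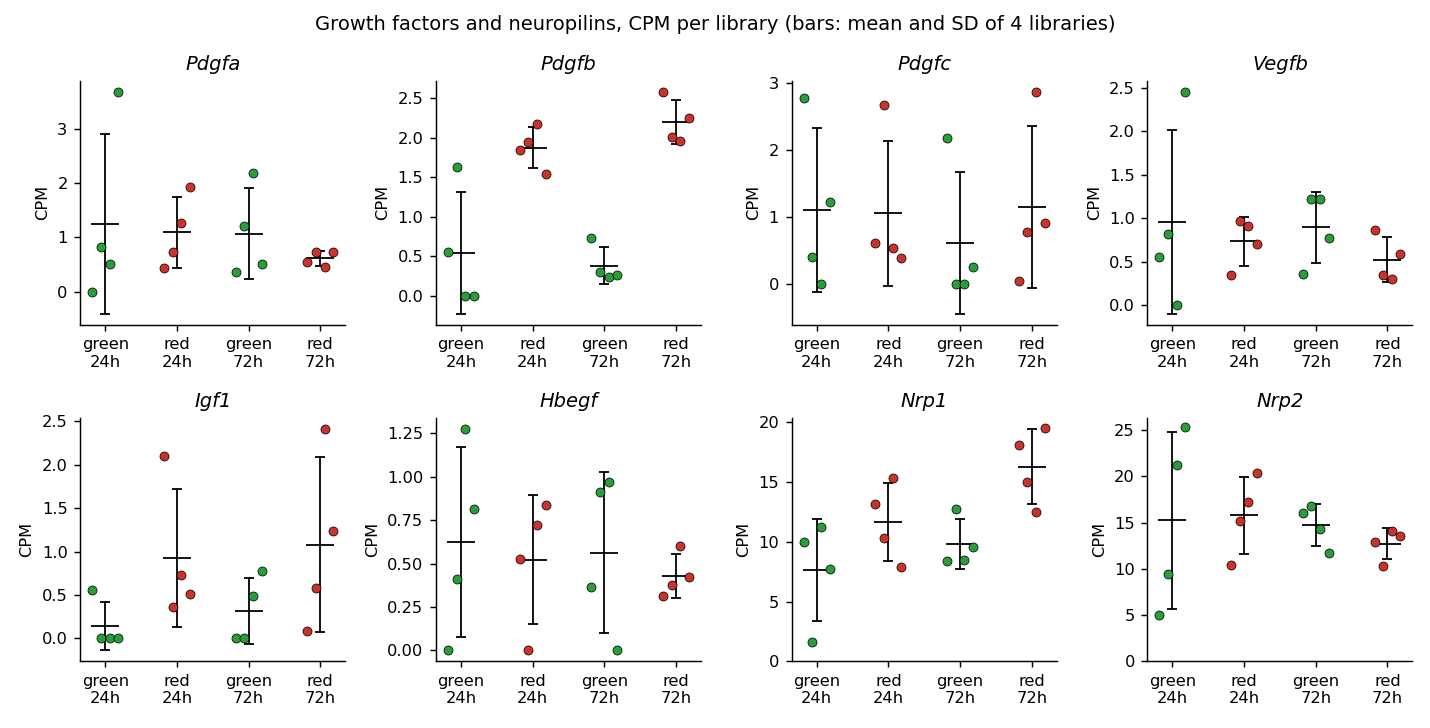
CPM of each member in each of the 16 libraries, with a panel a gene and its own linear axis; points are libraries, and the bars are the mean and SD of 4 libraries. All Kaede-red libraries at 72h lie above all Kaede-green libraries at 72h for Pdgfb (1.96 to 2.58 against 0.243 to 0.729 CPM). The mean of Nrp1 is highest in Kaede-red cells at 72h, but its colours overlap there (12.5 to 19.5 against 8.38 to 12.8 CPM). The colours also overlap in the remaining panels.

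At 24h the mean of Pdgfb was 0.548 ± 0.771 CPM for Kaede-green and 1.88 ± 0.259 CPM in Kaede-red libraries (SD, n = 4). At 72h the means were 0.384 ± 0.231 and 2.20 ± 0.280 CPM. Ordered by level, the 2 Kaede-red groups were neighbours that did not pass the test of their difference (log2 fold change 0.25, SE 0.47, adjusted p = 0.814), and neither did the 2 Kaede-green groups, 72h against 24h (-0.42, SE 1.01, adjusted p = 0.942). The step lay between the colours. Its log2 fold change was 2.24 (SE 0.50) over both times. It was 1.90 at 24h (SE 0.73, adjusted p = 0.115) and 2.58 at 72h (SE 0.69, adjusted p = 0.00850). The differences at 24h and 72h were not shown to differ from each other (change 0.68, SE 1.12, adjusted p = 0.834).

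Kaede-green Pdgfb rested on 5 counts in all at 24h and 5 at 72h, against 73 and 266 in Kaede-red cells. The ratio of pooled counts, scaled by library size, was 3.81 at 24h (95% interval 1.56 to 12.1) and 6.23 at 72h (2.64 to 19.3), intervals that cover counting error only. In 16 fits that each left out a single library, the log2 fold change at 24h ran from 1.29 (adjusted p = 0.330, without Kaede-green replicate 3 at 24h) to 3.79 (adjusted p = 0.0171, without Kaede-green replicate 2 at 24h, which holds 4 of the 5 counts), and it passed in 1 of them. At 72h the call ended when the Kaede-red libraries were thinned to the depth of Kaede-green ones, either in counts outside Rn45s (2.12, adjusted p = 0.0658) or in scaled library size (2.19, adjusted p = 0.0885, chosen after the data were seen). Each thinning was a single random draw, so that calls near the threshold may differ in another. Over both times Pdgfb passed under these thinnings (1.91, adjusted p = 0.0140, and 2.03, adjusted p = 0.0174). With the Rn45s share in the fit, neither Pdgfb (2.07 over both times, adjusted p = 0.20) nor Nrp1 (0.56, adjusted p = 0.655) passed. In that fit 156 of all 9642 tested genes were called over both times, against 1950 without the share.

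Platelets store PDGF-B, so their markers are given beside it. The 11 platelet and megakaryocyte markers summed to 0.817 to 6.69 CPM in Kaede-green against 6.81 to 28.9 CPM in Kaede-red libraries, and the 1 that could be tested, Pf4, was higher in Kaede-red cells (log2 fold change 2.72, SE 0.31, adjusted p = 9.50e-08). Pf4, which codes for a chemokine that macrophages can also express, made up most of that sum, at 0.510 to 6.13 CPM in Kaede-green against 6.01 to 27.7 CPM in Kaede-red libraries. The other 10 summed to 0 to 1.70 CPM (median 0.694) in Kaede-green against 0.181 to 2.10 CPM (median 0.868) in Kaede-red libraries, and Gp9 had no count in any library. Endothelial cells also express Pdgfb, and without Kdr their other 8 markers summed to 2.23 to 10.6 CPM in Kaede-green against 6.16 to 12.5 CPM in Kaede-red libraries. Cldn5 was at 0 in all Kaede-red libraries and Emcn in all Kaede-green ones, while Pecam1, which myeloid cells share, was higher in Kaede-red cells (log2 fold change 1.02, SE 0.25, adjusted p = 0.00313). Cdh5, the VE-cadherin gene, fell (-1.42, SE 0.49, adjusted p = 0.0375). The part of these cells in the Pdgfb result was not tested.

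Pdgfa, the gene of the PDGF-A chain, was low throughout. It had 0, 2, 2 and 9 counts in Kaede-green and 5, 6, 7 and 30 in Kaede-red libraries at 24h, and 1, 4, 9 and 2 against 14, 29, 3 and 35 at 72h. The means were 1.25 ± 1.65 and 1.09 ± 0.658 CPM at 24h and 1.07 ± 0.831 and 0.616 ± 0.140 CPM at 72h (Kaede-green, then Kaede-red; SD, n = 4), with overlap at both times. Its log2 fold change over both times was -0.48 (SE 0.51, 95% interval -1.48 to 0.52, adjusted p = 0.556). Leaving out Kaede-green replicate 4 at 24h, which alone reached 3.67 CPM, turned it to 0.18. Exons of Pdgfa overlap those of the opposite-strand gene 6330403L08Rik, and whether counting used strand is not stated, so reads of the pair may be mixed.

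Pdgfc, the gene of the latent PDGF-C chain, was also low. Counts were 5, 1, 0 and 3 in Kaede-green and 7, 22, 3 and 6 in Kaede-red libraries at 24h. At 72h they were 6, 0, 0 and 1 in Kaede-green and 1, 31, 19 and 43 in Kaede-red libraries. In both colours and at both times the highest library stood at over 2 CPM and the others under 1.3 CPM. The means at 24h were 1.10 ± 1.23 and 1.05 ± 1.08 CPM, and at 72h 0.611 ± 1.06 and 1.15 ± 1.21 CPM (Kaede-green, then Kaede-red; SD, n = 4). The log2 fold change was 0.52 over both times (SE 0.76, 95% interval -0.96 to 2.00, adjusted p = 0.681), an interval that takes in falls as well as rises. Pdgfc shares exon bases with the opposite-strand gene Gm16000.

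**Figure D2:**
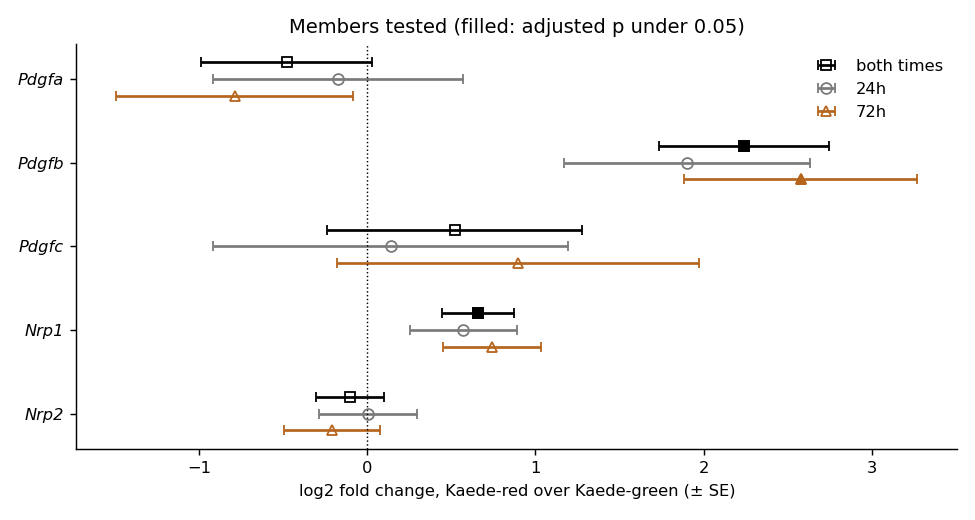
Log2 fold changes of Kaede-red over Kaede-green cells for the 5 members tested, over both times (squares), at 24h (circles) and at 72h (triangles); bars are 1 SE and filled symbols passed an adjusted p of 0.05. Pdgfb passed over both times (2.24) and at 72h (2.58), Nrp1 over both times (0.66), and the bars of Nrp2 cross 0 in all 3 comparisons.

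Within a library, the share of Pdgfb among the counts of Pdgfa, Pdgfb and Pdgfc does not depend on scaling. It was chosen after the values had been seen. In Kaede-green libraries the share was 16.7, 57.1, 0 and 0% at 24h and 22.2, 20, 10 and 25% at 72h, each out of 2 to 12 counts. In Kaede-red libraries it was 63.6, 36.4, 54.5 and 40% at 24h and 81.5, 57.1, 37.1 and 57.8% at 72h, each out of 22 to 185 counts. Every Kaede-red library but none of the Kaede-green ones other than replicate 2 at 24h lay above 30%. Over both times the mean share was 18.9 ± 18.2% in Kaede-green and 53.5 ± 15.4% in Kaede-red libraries (SD, n = 8), a difference of 34.6 percentage points (two-sided exact permutation test within times over 4900 relabellings, p = 0.00408, adjusted over 6 share tests 0.0245). At 72h it was 39.1 points (exact p = 0.0286, the smallest that 4 against 4 libraries allow, adjusted p = 0.0572) and at 24h 30.2 points (exact p = 0.114, adjusted p = 0.137). The share over both times kept an exact p of at most 0.00735 without any single library. These tests reuse the counts behind the fold change of Pdgfb, from genes that met the filter only through Kaede-red libraries. They are therefore no separate support for that difference.

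**Figure D3:**
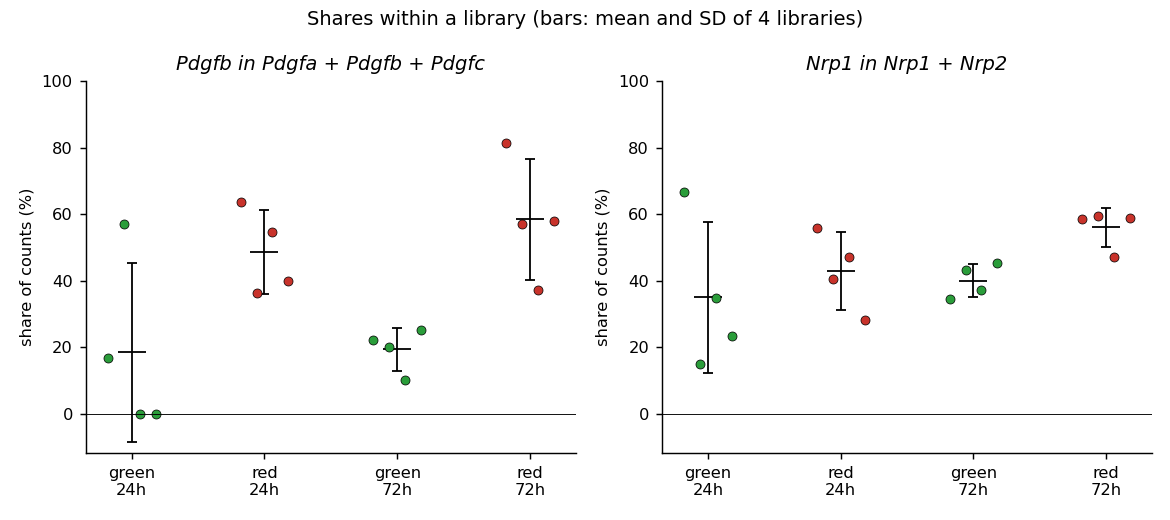
Share of Pdgfb in the counts of the 3 PDGF genes (left) and of Nrp1 in the counts of both neuropilins (right), in percent, for each library; bars are the mean and SD of 4 libraries. At 72h the Kaede-red libraries lie above the Kaede-green ones in both panels, and at 24h the colours overlap in both.

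Of the receptors, Nrp1 rose and Nrp2 did not pass the test. Nrp1, the co-receptor for VEGF-A and semaphorin-3A, had 18, 4, 44 and 19 counts in Kaede-green libraries at 24h (10, 1.63, 11.2 and 7.75 CPM) and 150, 85, 85 and 123 in Kaede-red libraries (13.1, 10.3, 15.4 and 7.93 CPM). At 72h it had 23, 42, 35 and 37 counts in Kaede-green libraries (8.38, 12.8, 8.51 and 9.59 CPM) and 464, 597, 83 and 928 in Kaede-red libraries (18.1, 15.0, 12.5 and 19.5 CPM). Of the Kaede-red libraries, 2 of 4 at 24h and 3 of 4 at 72h lay above all Kaede-green libraries of their time. The means were 7.66 ± 4.27 and 11.7 ± 3.25 CPM at 24h and 9.82 ± 2.06 and 16.3 ± 3.13 CPM at 72h (Kaede-green, then Kaede-red; SD, n = 4).

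The log2 fold change of Nrp1 was 0.66 over both times (SE 0.21, 95% interval 0.23 to 1.08). It was 0.57 at 24h (SE 0.32, adjusted p = 0.313) and 0.74 at 72h (SE 0.29, adjusted p = 0.0760). From 24h to 72h, the difference was 0.51 in Kaede-red cells (SE 0.27, adjusted p = 0.261) and 0.33 in Kaede-green cells (SE 0.34, adjusted p = 0.820), and the colours' difference changed by 0.17 (SE 0.43, adjusted p = 0.899). The order of the groups was thus Kaede-red 72h, Kaede-red 24h, Kaede-green 72h and Kaede-green 24h, and only the pooled step between colours passed. The call over both times sat near the threshold: it was lost in 6 of 16 fits that left out a single library (Kaede-red replicates 1 and 3 at 24h, Kaede-green replicates 1 and 3 at 72h, Kaede-red replicates 1 and 4 at 72h), with adjusted p of at most 0.0597. Leaving out Kaede-green replicate 2 at 24h gave 0.26 (adjusted p = 0.647) at 24h, 0.76 (adjusted p = 0.0261) at 72h and 0.51 (adjusted p = 0.0477) over both times. The 72h difference passed in that fit only, and its adjusted p reached 0.188 in the others.

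Nrp2, the co-receptor best known for VEGF-C and semaphorin-3F, had 9, 23, 83 and 62 counts in Kaede-green libraries at 24h (5.01, 9.40, 21.2 and 25.3 CPM) and 119, 125, 95 and 315 in Kaede-red libraries (10.4, 15.2, 17.2 and 20.3 CPM). At 72h it had 44, 55, 59 and 45 counts in Kaede-green (16, 16.8, 14.3 and 11.7 CPM) and 329, 409, 93 and 647 in Kaede-red libraries (12.8, 10.3, 14.0 and 13.6 CPM). The colours overlapped at both times. The means were 15.2 ± 9.58 and 15.8 ± 4.15 CPM at 24h and 14.7 ± 2.26 and 12.7 ± 1.68 CPM at 72h (Kaede-green, then Kaede-red; SD, n = 4). Its log2 fold change over both times was -0.10 (SE 0.20, adjusted p = 0.769), with a 95% interval of -0.50 to 0.30. Scaling by counts outside Rn45s alone, which moves the median of all genes to 0.93 at 24h and 0.68 at 72h, turned Nrp2 over both times to 0.63.

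The share of Nrp1 among the counts of both neuropilins, also chosen after the values had been seen, was 66.7, 14.8, 34.6 and 23.5% in Kaede-green and 55.8, 40.5, 47.2 and 28.1% in Kaede-red libraries at 24h. At 72h it was 34.3, 43.3, 37.2 and 45.1% in Kaede-green and 58.5, 59.3, 47.2 and 58.9% in Kaede-red libraries, without overlap. The difference at 72h was 16 percentage points (40.0 ± 5.06 against 56.0 ± 5.89%, SD, n = 4, exact p = 0.0286, adjusted p = 0.0572). At 24h it was 7.99 points (exact p = 0.571, adjusted p = 0.571) and over both times 12.0 points (exact p = 0.0886, adjusted p = 0.133). Kaede-green replicate 1 at 24h, with 18 of 27 counts in Nrp1 (95% exact binomial interval 46.0 to 83.5%), was the highest of all 16 libraries. In 16 repeats that each left out a single library, the difference over both times ran from 8.64 points (without Kaede-green replicate 2 at 24h) to 17.3 points. The latter, without Kaede-green replicate 1 at 24h, was the only repeat with an exact p under 0.05 (0.00327, not adjusted). Across the 16 repeats the exact p reached 0.220. The share reuses the counts behind the fold changes of both genes and is no separate support for them.

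Igf1, Vegfb and Hbegf did not pass the filter on low counts. Igf1 had 1, 0, 0 and 0 counts in Kaede-green and 24, 3, 4 and 8 in Kaede-red libraries at 24h, and 0, 0, 2 and 3 against 2, 23, 16 and 59 at 72h. Igf1 was thus listed at 0 in 5 of 8 Kaede-green libraries and in none of the Kaede-red ones. Means were 0.139 ± 0.279 and 0.927 ± 0.797 CPM at 24h and 0.316 ± 0.384 and 1.08 ± 1.01 CPM at 72h (Kaede-green, then Kaede-red; SD, n = 4). The pooled ratio was 10.2 at 24h, from 1 against 39 counts (95% counting interval 1.72 to 412), and 2.34 at 72h (0.970 to 7.37). In a fit without the filter, Igf1 passed over both times (log2 fold change 2.42, SE 0.81, adjusted p = 0.0313) and not at 24h (3.22, adjusted p = 0.212) or 72h (1.62, adjusted p = 0.292).

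Vegfb, the ligand of VEGFR1 and neuropilin-1, had 1, 2, 0 and 6 counts in Kaede-green and 4, 8, 5 and 11 in Kaede-red libraries at 24h, and 1, 4, 5 and 3 against 22, 14, 2 and 28 at 72h. Its pooled ratio was 0.811 at 24h (0.372 to 1.95) and 0.594 at 72h (0.325 to 1.17). Hbegf, the shed ligand of the EGF receptor, had 0, 1, 5 and 2 counts in Kaede-green and 6, 0, 4 and 13 in Kaede-red libraries at 24h, and 1, 3, 4 and 0 against 8, 15, 4 and 20 at 72h. Its pooled ratio was 0.750 (0.324 to 1.94) and 0.688 (0.322 to 1.69). In the fit without the filter neither passed over both times (Vegfb -0.41, adjusted p = 0.904, and Hbegf -0.30, adjusted p = 1.00). For either gene a difference between the colours was not detectable at this depth.

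Per kilobase of exon, Nrp2 was the most abundant member in Kaede-green cells (1.29 CPM per kb at 24h and 1.24 at 72h), followed by Nrp1 (0.783 and 1.00). In Kaede-red cells at 72h the order of these 2 was turned, with Nrp1 at 1.66 and Nrp2 at 1.07 CPM per kb. Among the ligands that are members, Vegfb had the highest level in Kaede-green cells (0.595 CPM per kb at 24h and 0.557 at 72h) and Pdgfb was near the bottom (0.132 and 0.0923). In Kaede-red cells at 72h Pdgfb led these member ligands at 0.529 CPM per kb, ahead of Vegfb (0.327), Pdgfc (0.225), Pdgfa (0.198), Igf1 (0.109) and Hbegf (0.0886). The ligand gene Vegfa is not a member and was not ranked. Without scaling by length it averaged 22.4 CPM in Kaede-red cells at 72h, against 2.20 CPM for Pdgfb. At 24h Pdgfb and Vegfb in Kaede-red cells were next to each other (0.451 and 0.457 CPM per kb). Differences between genes were not tested.

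The receptors and processing factors for these ligands moved in both directions. Of 79 other genes listed for the PDGF, VEGF, semaphorin, IGF and EGF pathways and for other stromal growth factors, 34 were tested, of which 8 passed as higher and 9 as lower in Kaede-red libraries over both times. The counts were 4 and 3 at 24h, and 5 and 8 at 72h. Passing in either direction, the share of all tested genes was 20.2% for both times combined, 7.51% at 24h and 16.8% at 72h. From 24h to 72h 3 rose and 7 fell in Kaede-red cells, and none passed in Kaede-green cells or for the change of the colours' difference. The median log2 fold change of the 34 over both times was 0.20, beside 0.06 for all tested genes. Of the genes named below, Kdr, Plau, Grn and Osm passed over both times and also at each time. Furin, Vegfa, Adam17, Sema3a, Igfbp4 and Igfbp6 passed over both times and at 72h but not at 24h. Igf1r and Pgf passed over both times and at 24h but not at 72h, and Irs1 and Irs2 passed at neither time alone. Directions in these paragraphs are relative to TMM scaling. With library totals alone, which moved the median of all genes to 2.20, the falls over both times of Vegfa, Igf1r, Irs1, Sema3a, Igfbp4, Igfbp6 and Osm turned to rises, and with totals outside Rn45s that of Vegfa did (0.090). Fits with another test, scaling, filter, thinning, block or covariate could lose a call or turn its sign. Call and sign both held in 10 of 11 such fits for Kdr, Grn, Plau, Adam17, Furin and Osm. They held in 8 of 11 for Vegfa and Igfbp4 and in 7 of 10 for Igf1r, Igfbp6 and Pgf. For Sema3a they held in 5 of 10 and for Irs1 in 3 of 10.

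For the PDGF pathway, Furin and Plau, whose products are proteases that process growth factors, rose in Kaede-red cells over both times. Furin ran from 9.97 to 22.9 CPM (median 13.6) in Kaede-green and from 9.96 to 33.2 CPM (median 26.6) in Kaede-red libraries. Its log2 fold change was 0.72 over both times (SE 0.18, adjusted p = 0.00432), 0.27 at 24h (SE 0.26, adjusted p = 0.612) and 1.16 at 72h (SE 0.25, adjusted p = 0.00130). Plau, the urokinase gene, ran from 8.68 to 20.4 CPM (median 11.9) and from 17.5 to 32.7 CPM (median 25.1), a log2 fold change of 0.98 (SE 0.18, adjusted p = 0.000135). The receptor gene Pdgfra, a fibroblast marker, had a log2 fold change of -0.67 (SE 0.34, adjusted p = 0.175) over both times, 0.18 (SE 0.52, adjusted p = 0.888) at 24h and -1.51 (SE 0.44, adjusted p = 0.0155) at 72h. Pdgfrb was not tested and had group means of 1.72 and 0.576 CPM at 24h and 1.45 and 0.418 CPM at 72h (Kaede-green, then Kaede-red). Beside these, the 11 fibroblast and pericyte markers, which include both receptors, summed to 61.3 to 85.2 CPM in Kaede-green against 21.9 to 66.3 CPM in Kaede-red libraries, and 5 of the 6 tested were lower in Kaede-red cells over both times. Pdgfd, the remaining PDGF ligand, had 1 count in all 16 libraries.

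Among the VEGF ligands, Vegfa, the main driver of vessel growth, fell in Kaede-red relative to Kaede-green cells. At 24h it averaged 43.6 ± 4.64 CPM in Kaede-green libraries and 33.7 ± 6.52 CPM in Kaede-red ones, and at 72h 44.9 ± 11 and 22.4 ± 4.29 CPM (SD, n = 4). Its log2 fold change over both times was -0.68 (SE 0.15, adjusted p = 0.000830). The receptor gene Kdr averaged 8.75 ± 1.19 and 14.8 ± 1.65 CPM at 24h and 8.13 ± 2.01 and 20.6 ± 4.75 CPM at 72h, and rose by 1.06 (SE 0.17, adjusted p = 1.79e-05) on the log2 scale over both times. Over both times Kdr ran from 5.79 to 10.7 CPM in Kaede-green and from 13.2 to 24.6 CPM in Kaede-red libraries. Kdr is an endothelial marker, whose other markers are given above. Flt1, which codes for the VEGFR1 that binds VEGF-B, did not pass over both times (0.22, SE 0.29, adjusted p = 0.653). It was -0.71 (SE 0.40, adjusted p = 0.321) at 24h and 1.14 (SE 0.41, adjusted p = 0.0526) at 72h, and the change between these, 1.85 (SE 0.58, adjusted p = 0.0995), did not pass either. Pgf, the gene of placental growth factor, had no count in Kaede-green libraries at 24h and 18, 11, 1 and 13 in Kaede-red ones. With the Kaede-green group set at a floor of 3 counts it was 3.74-fold higher, and the 95% counting interval started at 2.91-fold. At 72h Pgf had 0, 5, 1 and 0 counts in Kaede-green and 27, 19, 3 and 32 in Kaede-red libraries, a pooled ratio of 1.58 (95% counting interval 0.695 to 4.43). As with the PDGF genes, Pgf met the filter on low counts only through Kaede-red libraries, so that it entered the test through that colour alone. Pgf passed over both times (adjusted p = 0.0279). That call was lost in 4 of 16 fits without a single library and with a replicate block (adjusted p = 0.0644). It was also lost with the Rn45s share as a covariate (adjusted p = 0.482). Thinning Kaede-red libraries to the scaled size of Kaede-green ones ended it too (adjusted p = 0.182).

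**Figure D4:**
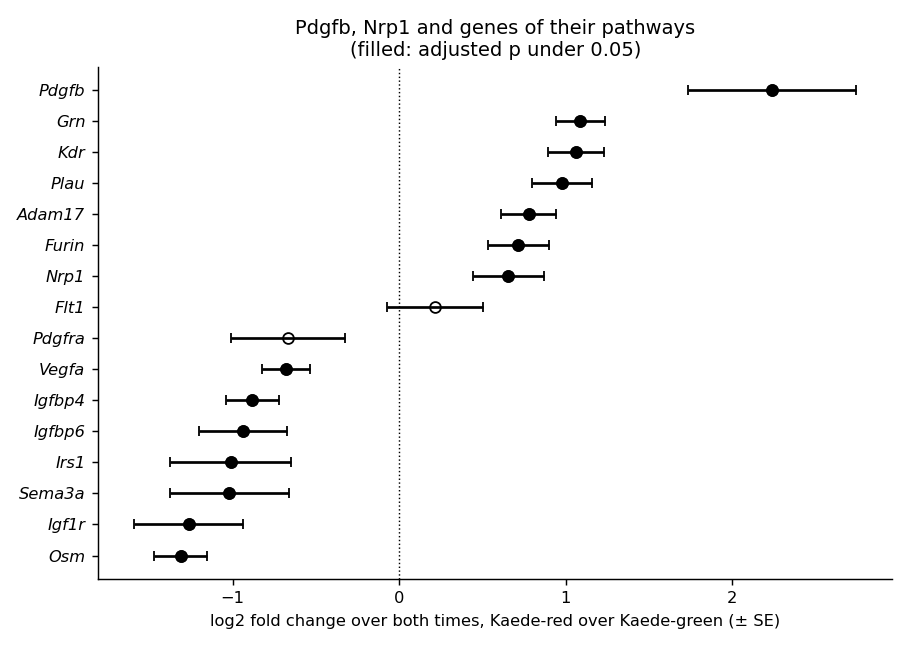
Log2 fold changes over both times, Kaede-red over Kaede-green, of Pdgfb, Nrp1, the receptors and ligands always named and the called pathway genes with the largest differences other than Pgf; bars are 1 SE and filled symbols passed an adjusted p of 0.05. Pdgfb lies highest at 2.24 and Osm lowest at -1.31, with Kdr at 1.06 and Vegfa at -0.68.

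The neuropilin ligand Sema3a, which repels growing axons and vessels, fell in Kaede-red cells by 1.02 on the log2 scale (SE 0.36, adjusted p = 0.0401), from 1.11 to 4.90 CPM (median 2.73) to 0.469 to 3.98 CPM (median 1.10). Of the IGF pathway, the receptor gene Igf1r fell by 1.26 (SE 0.33, adjusted p = 0.00531), from means of 5.02 ± 3.05 to 1.39 ± 0.647 CPM at 24h and of 3.01 ± 0.634 to 1.89 ± 0.709 CPM at 72h (SD, n = 4). Irs1, an adaptor downstream of it, fell by 1.01 (SE 0.36, adjusted p = 0.0457). Irs2, listed beside Irs1, went the other way and rose by 0.65 (SE 0.23, adjusted p = 0.0396). Of the 5 IGF ligand and receptor genes tested, 1 was thus called higher and 2 lower over both times. The call of Irs2 was not followed in the alternative fits. The calls of Sema3a and Irs1 were lost in 9 and 11 of the 16 fits without a single library. Igfbp4 and Igfbp6, whose products bind IGFs outside the cell, were the 2 of 8 IGF-binding protein genes that could be tested and both fell, Igfbp4 by 0.88 (SE 0.16, adjusted p = 0.000109) and Igfbp6 by 0.94 (SE 0.26, adjusted p = 0.0105).

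For the EGF family, Adam17, the protease that sheds HB-EGF, rose by 0.78 on the log2 scale over both times (SE 0.17, adjusted p = 0.000774). It ran from 5.30 to 13.1 CPM in Kaede-green and from 13.4 to 20.4 CPM in Kaede-red libraries. Egfr, the receptor, had 3 and 16 counts in all at 24h and 13 and 37 at 72h in Kaede-green and Kaede-red libraries and was not tested. Of other stromal factors, Grn, the progranulin gene, rose by 1.09 (SE 0.15, adjusted p = 1.25e-06), from 57.9 to 97.3 CPM in Kaede-green to 103 to 246 CPM in Kaede-red libraries. Osm, the gene of the cytokine oncostatin M, fell by 1.31 (SE 0.16, adjusted p = 2.30e-07), from 12.4 to 31.5 CPM to 7.77 to 11.3 CPM.

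As a description of which genes ran with the members across the 16 libraries, Pearson correlations of log2 CPM were taken with 1388 abundant genes, and these share library depth and the colour difference itself. Pdgfb was most like Ctsb (r = 0.91), which codes for the lysosomal protease cathepsin B, then Slc3a2 (0.90) and Gsn (0.90), an amino acid transporter subunit and the actin-severing protein gelsolin. Nrp1 was most like Hdlbp (0.77), Calm3 (0.71) and Metrnl (0.70). Nrp2 was most like Eif3a (0.83), Hnrnpa2b1 (0.81) and Nap1l1 (0.81), a set with a translation factor and an RNA-binding protein. For the sparse counts of Pdgfa and Pdgfc the closest genes were Rbm25 (0.75) and Klf6 (0.65).

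**Figure D5:**
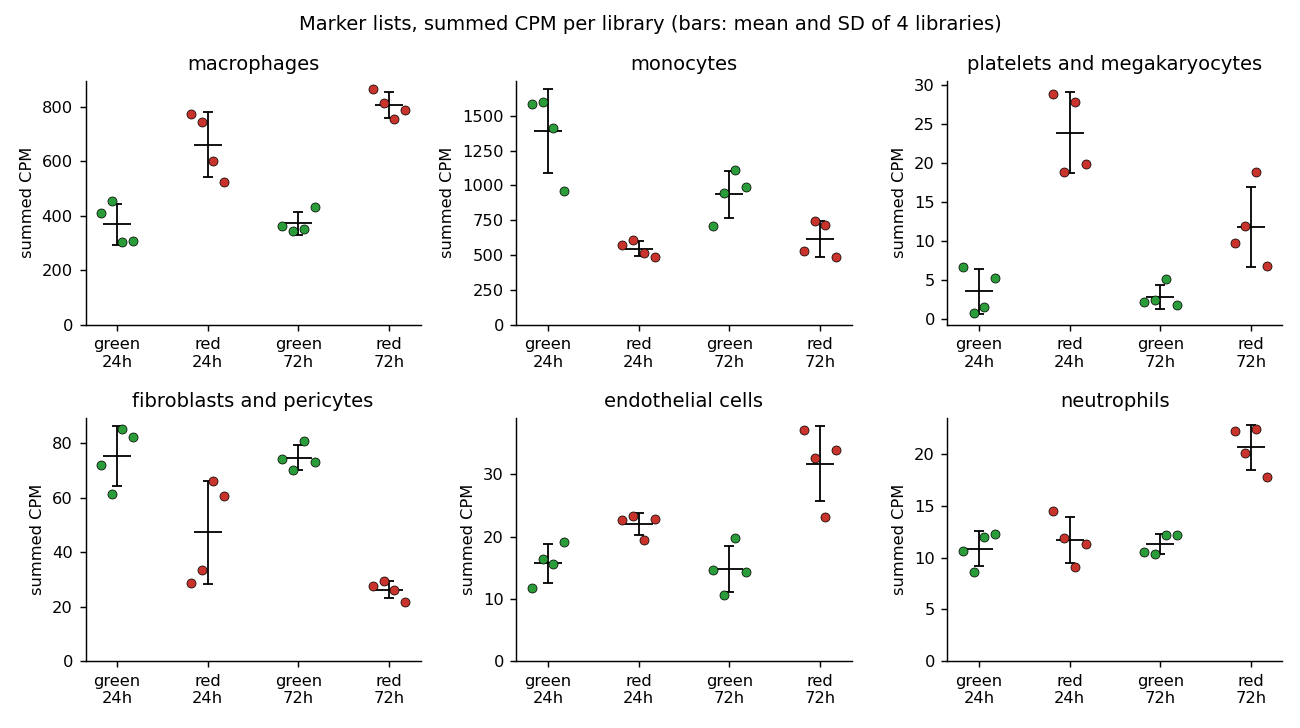
Summed CPM of marker lists for macrophages, monocytes, platelets and megakaryocytes, fibroblasts and pericytes, endothelial cells and neutrophils in each library, with a panel a list and its own linear axis; bars are the mean and SD of 4 libraries. Macrophage markers lie higher (522 to 866 against 304 to 454 CPM) and monocyte markers mostly lower in Kaede-red libraries, and the platelet list, most of which is Pf4, is higher in Kaede-red libraries at both times.

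The colours also differed in RNA of cell type markers, and these values stand beside every result above. Of 11 macrophage markers 9 were higher in Kaede-red cells over both times, and of 6 monocyte markers 3 were lower. Neutrophil markers summed to 8.58 to 12.2 CPM in Kaede-green against 9.05 to 22.3 CPM in Kaede-red libraries, with Ngp at 0 throughout. At 72h alone they summed to 10.4 to 12.2 against 17.8 to 22.3 CPM, without overlap. Of the 2 neutrophil markers tested, Csf3r was higher in Kaede-red cells over both times (log2 fold change 0.67, SE 0.17, adjusted p = 0.00576). The other, Mmp8, did not pass (0.50, SE 0.32, adjusted p = 0.289). Markers of dendritic cells, of T and NK cells and of B cells each summed to under 9 CPM in every library, and tumour epithelial markers to at most 3.67 CPM. Erythroid markers summed to 0 to 8.98 CPM in Kaede-green against 0.0390 to 11.3 CPM in Kaede-red libraries, and markers of dividing cells to 31.9 to 54.3 and 21.9 to 57.4 CPM. At 72h alone, markers of dividing cells summed to 36.4 to 53.6 against 21.9 to 29.7 CPM. Fibroblast and pericyte markers at 72h summed to 70.1 to 81.0 against 21.9 to 29.4 CPM, and neither list overlapped between the colours at that time. The part of cell composition in the differences of Pdgfb and Nrp1 was not tested.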

How the data were processed

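According to the study's methods and the submitters' processing notes, the authors made libraries from total RNA with the SMARTer stranded pico kit, trimmed reads with Trim Galore, checked them with FastQC, aligned them to mm10 with HISAT2 and deposited featureCounts counts per gene, with no normalization. Tool versions and the strand setting are not given in the sources used here. Counts were tested with edgeR 4.0.16 in R 4.3.3: filterByExpr, TMM factors, 1 mean per group over all 16 libraries, and the quasi-likelihood test, with Benjamini-Hochberg adjustment over the 9642 genes tested and calls at an adjusted p under 0.05. The SE is the fold change over the square root of F. A prior count of 2 entered log2 CPM.

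The genes followed, the pathway and marker lists and the tests were chosen with earlier results of these data known. Named were the 8 members, 8 fixed partner genes, up to 10 other called pathway genes by the size of their difference, and the genes closest in r (log2 CPM of at least 4, up to 3 a member). Irs2 was named in addition, as it was called in the direction opposite to Irs1. Igf1, Vegfb and Hbegf were given as counts with Poisson or binomial intervals (95%). Promoters came from RefSeq, where Pdgfb and Hbegf had no entry and Igf1 no window free of exons. Alternatives were DESeq2 1.42.0, other scalings, filters, thinning, a covariate, a replicate block and leaving out each library. The script was tested on simulated counts. Replicate libraries differed beyond sampling noise (chi-square per gene of at least 3.21).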

Additional observations from a re-analysis of the deposited data

Results flagged for a closer look

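In 32 sets of 4 libraries (each member in each group), 4 held a library far from the other three, judged by its gap against the whole range. Chance gives about 1 in 20 for continuous values, a rate that does not hold for counts as low as these, where 1 count beside 3 libraries at 0 always stands apart. Kaede-green replicate 1 at 72h had 0.729 CPM of Pdgfb, against 0.243 to 0.305 in the others, which is 2 counts against 1 each. Kaede-red replicate 2 at 24h had 2.67 CPM of Pdgfc, against 0.387 to 0.613, and Kaede-green replicate 1 at 72h had 2.19 CPM of Pdgfc, against 0 to 0.259. Kaede-green replicate 1 at 24h had 0.557 CPM of Igf1, a single count, where the others had none.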

How the results depend on the processing

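The number of members called over both times (2) became 5 with library totals only (where 9328 of 9642 genes were called), 3 with totals outside Rn45s (6124 of 9641), 3 without a filter (2154 of 21040), 0 of 0 tested with at least 10 counts in every library, and 0 with the Rn45s share as a covariate (156 of 9642), and ran from 1 to 3 without single libraries. At 24h (0) it became 5 with library totals (9052 genes) and 3 with totals outside Rn45s (4651), and ran from 0 to 1. At 72h (1) it became 4 and 2 with these totals (8133 and 3623 genes), 2 without a filter, 2 in a fit of only the groups compared, 0 with at least 10 counts, 0 and 0 under both thinnings, 0 with the covariate (102 genes), and ran from 1 to 2. Library totals move the median of all genes to 2.20, and the values below under it carry that shift. Signs turned as follows (log2 fold change, Kaede-red over Kaede-green, mostly of values that passed no test). With library totals, over both times: Pdgfa 1.59, Nrp2 2.05, Vegfa 1.49, Pdgfra 1.44, Igf1r 0.81, Osm 0.84, Sema3a 1.08, Irs1 1.08, Igfbp6 1.15, Igfbp4 1.17. At 24h Pdgfa was 1.86, and at 72h Pdgfa was 1.33 and Nrp2 1.84. From 24h to 72h Pdgfa was 0.48, Pdgfb 0.092 and Nrp2 0.63 in Kaede-green and Pdgfc 0.14 and Nrp2 0.20 in Kaede-red cells, and the change of the difference was -0.20 for Nrp1. With totals outside Rn45s, Pdgfa was 0.24, Nrp2 0.63, Vegfa 0.090 and Pdgfra 0.10 over both times, Pdgfa 0.62 at 24h, Nrp2 0.44 at 72h and the change for Nrp1 -0.037. With the covariate, Pdgfa was 0.46, 0.51 and 0.40 and Nrp2 0.41 and 0.39 over the same comparisons, Pdgfc -0.15 at 24h, and Pdgfa 0.053 and Nrp2 0.020 between times in Kaede-green cells. Nrp2 at 24h, 0.0039 as reported, was -0.0051 with DESeq2, -0.048 when thinned to scaled size, -0.019 with RLE factors, -0.016 without Rn45s and -0.024 with only the groups compared, and 0.011 over both times without a filter. Pdgfc was -0.036 at 24h and 0.053 between times in Kaede-red cells with DESeq2, and 0.037 in the latter without a filter. Thinned to scaled size, Kaede-red cells changed by 0.14 (Pdgfa) and -0.080 (Pdgfb) with time, and the change of the difference was 0.32 for Pdgfa.

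Red and green libraries of the same replicate number were only weakly alike (r of -0.02 to 0.15 over 8 pairs, 1 over 0.1, 2 best with their own number). At 24h these r were 0.080, 0.092, 0.049 and 0.153, and at 72h -0.0031, 0.029, -0.018 and -1e-04. Weak r cannot show that the libraries were unpaired. The exact tests of shares treated the libraries as unpaired and were not repeated with a replicate block. With the replicate block, 2 members were called over both times, Pgf lost its call (3.53, adjusted p = 0.0644), and Pdgfa (0.13) and Pdgfc (-0.089) turned sign at 24h, Pdgfa (0.0023) in Kaede-green and Pdgfc (0.11) in Kaede-red cells with time. Without single libraries, ranges that crossed 0 were: over both times Pdgfa -0.74 to 0.18 and Nrp2 -0.24 to 0.032. At 24h Pdgfa ran from -0.69 to 1.17, Pdgfc from -0.87 to 1.09 and Nrp2 from -0.26 to 0.29. Between times in Kaede-green cells Pdgfa ran from -0.84 to 1.18, Pdgfb from -1.04 to 1.46, Pdgfc from -3.27 to 0.13 and Nrp2 from -0.37 to 0.19, and in Kaede-red cells Pdgfc from -0.78 to 0.99. The change of the difference ran from -1.98 to 0.036 for Pdgfa, -1.19 to 1.27 for Pdgfb, -0.19 to 3.22 for Pdgfc, -0.15 to 0.50 for Nrp1 and -0.53 to 0.038 for Nrp2. Pdgfb over both times stayed between 1.93 and 3.20 and passed in all 16 of these fits. The cause of these changes was not tested.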
